A study of Mus musculus with 32 samples.

Results

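The genes of the *Myc*, *Max* and Mxd network were examined for histone marks in mouse leukemias with and without the acetyltransferase *Kat2a*. The 10 members were taken by name from the 21938 protein-coding genes that GENCODE M21 places on chromosomes 1 to 19, X and Y of mm10. They are *Myc*, *Mycn*, *Mycl*, *Max*, *Mxd1*, *Mxd3*, *Mxd4*, *Mxi1*, *Mnt* and *Mga*, a rule that goes by name and uses no measured value. A peak was assigned to a gene when it overlapped the stretch from 1 kb upstream to 500 bp downstream of any transcription start site (TSS) of that gene, called its promoter here. For *Myc*, the 2 Mb that follow the end of the gene were also examined, since a distal enhancer cluster known from blood cells lies there.

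The study profiled H3K4me3, H3K9ac, H3K27ac and H3K4me1 by ChIP-seq in bone marrow taken at the terminal stage of MLL-AF9 acute myeloid leukemia (AML), in 16 ChIP libraries. Each of the 4 marks was measured in 2 replicates of *Kat2a* WT and 2 replicates of *Kat2a* KO leukemia. All donors were *Kat2a* Flox/Flox mice on a C57Bl/6 background, and all were given pIpC, so the WT group also carries the floxed alleles and received the inducer. WT donors were Mx1-Cre -/- and KO donors Mx1-Cre +/-, in which the interferon-responsive Mx1 promoter drives Cre and pIpC triggers excision. The labels give no age. Lineage-depleted marrow of these donors was transduced with a retrovirus for the MLL-AF9 fusion and transplanted into lethally irradiated recipients, whose own surviving cells can be part of the marrow. Marrow of 5 WT and of 4 KO animals was pooled, and the replicates are independent aliquots of cells with their own chromatin preparation, drawn from 1 pool per genotype. Every p-value below therefore measures the spread between preparations of 1 pool per genotype, not the spread between animals.

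The proteins of this network bind DNA as pairs that share Max as the common partner. Myc, Mycn and Mycl pair with Max at E-box sequences and promote transcription, growth and division, whereas Mxd1, Mxd3, Mxd4, Mxi1 and Mnt compete for Max and recruit Sin3 corepressors. Mga also pairs with Max and belongs to a variant Polycomb complex. In blood, Myc levels follow a cluster of enhancers far downstream of the gene, and leukemias driven by MLL fusions are known to depend on Myc. H3K4me3 and H3K9ac mark active promoters, H3K27ac active promoters and enhancers, and H3K4me1 mainly enhancers. Kat2a acetylates H3K9.

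The deposited peak lists hold the authors' MACS2 fold enrichment at each peak summit, a ratio to the local background, and no read counts. The sequencing depth is thus unknown, and a promoter without a listed peak cannot be given a detection limit. H3K4me3 and H3K9ac were immunoprecipitated from 5000000 cells, and H3K27ac and H3K4me1 from 500000 cells. In the 8 lists of the first pair of marks, 85.0% to 96.1% of the peaks had a q-value of at most 0.05. Log2 fold enrichment across genes correlated between replicates with r 0.79 in WT and 0.79 in KO for H3K9ac, but 0.44 and 0.49 for H3K4me3. Between libraries of different genotype r was 0.78 to 0.83 for H3K9ac and 0.36 to 0.57 for H3K4me3. The replicate 1 lists of H3K27ac and H3K4me1 stood apart in both genotypes. Their peaks had a median width of 48 to 49 bp, and 13, 0, 0 and 5 peaks passed q 0.05 in WT H3K27ac, KO H3K27ac, WT H3K4me1 and KO H3K4me1. In replicate 2 of these marks the median width was 483 and 505 bp for H3K27ac and 215 and 425 bp for H3K4me1 (WT and KO). Statements on these marks rest on replicate 2, a single library per genotype, unless replicate 1 is named. The KO lists of replicate 2 were also longer, with 46047 against 29757 peaks for H3K27ac and 78042 against 45770 for H3K4me1.

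Markers of the myeloid lineage and of MLL-AF9 leukemia carried H3K9ac in both WT libraries at 10 of 10 genes. In both KO libraries 8 of 10 did, against 51.7% of all protein-coding genes in WT and 50.1% in KO, with *Mpo* and *Elane* missing from KO replicate 1 alone. *Hoxa9*, a target of MLL fusions, had fold enrichments of 14.4 and 17.8 (WT) and 13.1 and 25.0 (KO). *Meis1*, another such target, had 18 and 22.9 (WT) and 14.6 and 22.6 (KO). *Spi1* was lower in both KO libraries, with 19.9 and 24.4 (WT) and 13.1 and 15.7 (KO). *Cebpa* was too, with 15.5 and 11.4 (WT) and 9.65 and 9.92 (KO). *Kit* was higher in both, with 5.32 and 4.49 (WT) and 5.37 and 7.84 (KO). Of the 8 list genes in the limma fit described below, 3 were higher and 5 lower in KO. Their median log2 difference was -0.12, and limma called 0. Of all genes fitted, 19.2% were lower and 10.4% higher in both KO libraries. H3K9ac was listed in both libraries of a genotype at 0 of 4 T cell markers, 0 of 4 B cell markers and 0 of 6 markers of other tissues. Of 4 erythroid markers, *Epor* had an H3K9ac peak in both KO libraries (2.67 and 3.29) and in neither WT library, whereas 0.173% of all protein-coding genes had this pattern. *Klf1* had H3K9ac in 1 library of each genotype, at 5.01 in WT replicate 1 and 2.73 in KO replicate 2, and *Gata1* and *Hba-a1* in none. H3K4me3 at *Epor* was 2.56 in WT replicate 1, not listed in WT replicate 2, and 3.03 and 6.27 in KO. H3K4me1 in replicate 2 was at 1 of 4 erythroid markers in WT and 3 of 4 in KO, against 18.4% and 37.2% of all protein-coding genes. The reverse pattern, found at 0.647% of all protein-coding genes, occurred at no gene of the lists examined. For H3K4me3, *Mpo* was the 1 listed gene with a peak in both WT libraries (3.34 and 3.16) and in no KO library, against 0.346% of all genes. None had the reverse, against 0.228% of all genes. Over the myeloid list, H3K4me3 was in both libraries at 7 of 10 genes in WT and 8 of 10 in KO, against 48.4% and 50% of all genes. Here *Cd34* and *Itgam* had it in both KO libraries and in WT replicate 1 alone. H3K27ac at *Mpo* was 2.84 in WT and 4.35 in KO (replicate 2). *Mpo*, *Elane*, *Hoxa9*, *Meis1*, *Spi1*, *Cebpa*, *Kit*, *Cd34*, *Itgam* and *Klf1* were singled out here after their values were seen. Whether the pools differ in their share of maturing myeloid or erythroid cells was not tested. A mark in more cells and a stronger mark per cell cannot be told apart in bulk chromatin.

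*Kat2a*, the gene that was deleted, kept promoter peaks in both genotypes. Its H3K9ac fold enrichment was 8.0 and 4.58 in WT and 7.48 and 11.8 in KO, and its H3K4me3 fold enrichment was 6.50 and 3.52 in WT and 6.36 and 10.8 in KO. The groups overlapped for both marks. A promoter peak does not check the deletion of exons.

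Most network genes carried the marks of an active promoter in both genotypes, whereas *Mycn* had no listed H3K9ac or H3K27ac peak at its promoter. H3K4me3 was listed in both replicates at 9 of 10 members in WT, where 48.4% of all protein-coding genes had it, and at 9 of 10 in KO, against 50%. The member without it was *Mycn* in WT, which lacked a peak in replicate 2, and *Mga* in KO, which lacked one in replicate 1. Library by library, the members with H3K4me3 numbered 10 and 9 in WT, against 55.6% and 48.7% of all genes, and 9 and 10 in KO, against 51.8% and 53.0%. H3K9ac was present at the same 9 members in every library, all but *Mycn*. The background for H3K9ac was 54.4% and 52.7% of all genes in the WT replicates (51.7% in both) and 51.5% and 52.2% in the KO replicates (50.1% in both).

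H3K27ac was listed in replicate 2 at 8 of 10 members in both genotypes, where 44.3% of all genes had it in WT and 49.8% in KO. *Mycn* and *Mycl* were the members without it. In replicate 1, the WT list held peaks at 3 members, *Max*, *Mxi1* and *Mnt*, against 12.7% of all genes, and the KO list at 0, against 0.470%. H3K4me1 was present in replicate 2 at 4 members in WT (*Myc*, *Mycn*, *Mxd3* and *Mnt*), against 18.4% of all genes, and at 8 in KO, against 37.2%. The members without H3K4me1 in KO were *Myc* and *Mycn*. Replicate 1 gave 0 members in either genotype, with backgrounds of 1.85% in WT and 3.29% in KO. The number of H3K4me1 members moved with the length of the list, as the background did, and the part of list length in it was not tested. Within 2.5 kb of a TSS, 9 members in WT and 8 in KO had it. No share of all genes is available for that distance, so these counts stand without a background.

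Taken as combinations, 8 of 10 members in WT had H3K4me3, H3K9ac and H3K27ac together, the state of 41.4% of all protein-coding genes. In KO 7 members had it, against 45.6%. The difference was *Mga*, which had H3K9ac and H3K27ac in KO but no H3K4me3 peak in replicate 1. *Mycl* had H3K4me3 and H3K9ac without H3K27ac in both genotypes, a state held by 5.44% of genes in WT and 1.84% in KO. *Mycn* had none of the 3 marks in WT, like 46.3% of genes, and H3K4me3 alone in KO, like 2.13%.

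**Figure D1:**
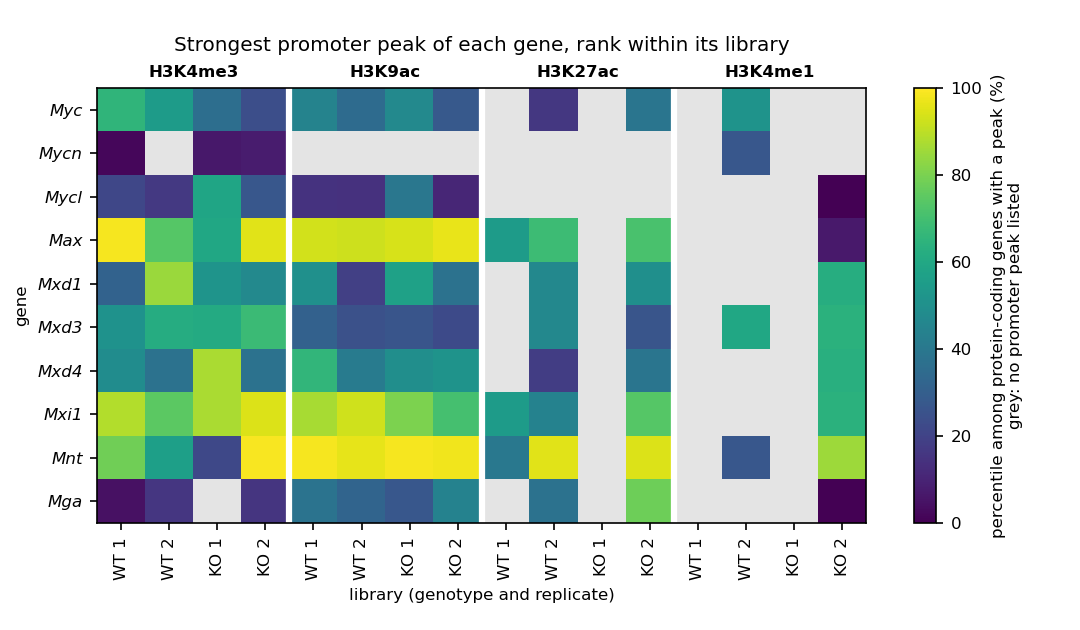
Rank of the strongest promoter peak of each gene (rows) within each of the 16 libraries (columns), as a percentile of fold enrichment among the protein-coding genes with a peak in that library, and grey where no peak is listed. Max, Mxi1 and Mnt are high in all 4 H3K9ac libraries, Mycn has no H3K9ac or H3K27ac, and the replicate 1 columns of H3K27ac and H3K4me1 are nearly empty.

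*Max*, the shared partner (minus strand, chr12:76937269-76962201), had one of the strongest acetylated promoters of the network. Its H3K9ac fold enrichment was 23.9 and 22.8 in WT and 22.5 and 27.9 in KO, at percentiles 92.2 to 96.6 of the genes with a peak. H3K27ac stood at 7.94 in WT and 11.0 in KO in replicate 2, and WT replicate 1 listed a peak of 48 bp at 3.46. H3K4me3 varied between replicates more than between genotypes, with 16.1 and 7.31 in WT and 6.74 and 13.2 in KO. High and low H3K4me3 libraries thus occurred in each genotype, and the groups overlapped. The H3K4me3, H3K9ac and H3K27ac peaks at *Max* promoters all lay at the outermost of 3, with H3K9ac peaks of 2062 to 2408 bp. Further peaks of these marks lay inside the gene and outside its promoters, with H3K9ac of at most 8.78 (KO replicate 2).

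*Myc* (plus strand, chr15:61985391-61990374), the main activator of the family in dividing blood cells, had a wide but only moderately enriched promoter. Its H3K9ac fold enrichment was 9.78 and 8.66 in WT and 9.08 and 7.80 in KO, at percentiles 28 to 46.9. H3K9ac nonetheless covered 92.2% to 100% of the 3532 bp of promoter sequence in the 4 libraries. The genotypes overlapped. H3K4me3 at *Myc* was 9.97 and 6.12 in WT and 5.29 and 5.31 in KO. Both WT values lay above both KO values, although the gap from the lower WT to the KO libraries was smaller than that between the WT replicates. *Myc* was the 1 of 8 members fitted for H3K4me3 with lower values in both KO libraries, a pattern that 14.0% of the genes fitted also showed. H3K27ac at *Myc* was 4.10 in WT and 7.05 in KO, both in replicate 2. These values come from separate peaks, with summits at 18 bp (WT) and -350 bp (KO) from the nearest TSS. H3K4me1 was listed in WT replicate 2 alone, at 3.69 and with a q-value that did not pass 0.05.

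*Mycn* (minus strand, chr12:12936093-12941914), known from neural and early progenitor cells, was the weakest member. H3K4me3 was listed at 3.01 in WT replicate 1, in no peak of WT replicate 2, and at 3.27 and 3.71 in the KO replicates. These were among the lowest values of their libraries, at percentiles 1.65 to 7.51. No library listed H3K9ac or H3K27ac at the *Mycn* promoter, and H3K4me1 was listed in WT replicate 2 alone at 3.28. The absence of a listed peak does not show that the mark is absent.

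*Mycl* (plus strand, chr4:122995652-123002485) had a small acetylated promoter without H3K27ac. H3K9ac was 4.53 and 5.02 in WT and 8.01 and 4.57 in KO, and it covered 10% to 27.6% of the promoter sequence. KO replicate 1 was the high library, and the other KO library lay between the WT values. H3K4me3 was 5.68 and 4.11 in WT and 6.64 and 5.57 in KO, and the groups overlapped. H3K4me1 was listed in KO replicate 2 alone, at 1.90.

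*Mnt*, the most widely expressed of the Max-binding repressors, had the strongest H3K9ac of the 10 genes in every library. Its fold enrichment was 31.7 and 26.8 in WT and 30.7 and 30.5 in KO, at percentiles 96.4 to 98.8 of genes with a peak. The genotypes overlapped. The gene lies on the plus strand at chr11:74830920-74845725 and has a second promoter 5406 bp after the outermost TSS. There H3K9ac was 13.8 and 23.9 in WT and 16.6 and 21.7 in KO, so that replicate 2 was higher in both genotypes. H3K27ac was 12.5 at the first and 10.6 at the second promoter in WT replicate 2, and 10.8 and 16.9 in KO replicate 2. WT replicate 1 listed 3.36 and 2.77 there, and KO replicate 1 no peak. The stronger H3K27ac promoter was thus the first in WT and the second in KO, in 1 usable library each. H3K4me3 at *Mnt* was 11.3 and 6.22 in WT and 4.41 and 15.7 in KO. The lowest and the highest value were both from KO.

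RefSeq promoter sequences of GRCm38 (the assembly of mm10), 250 bases before the start of the gene, were available for 9 of the 10 members with 11 promoters, and *Myc* was not matched. Both strands were searched for the canonical E-box CACGTG, to which Myc and Max pairs bind, and for the blood factor motifs GAGGAAGT (Spi1), TGTGGTT (Runx) and TTGCNNAA (Cebp). The E-box occurred at 2 members, *Mnt* and *Mxd4*, both repressors of the network, and at 6.02% of the 32851 promoters in the table. The stretches around these E-boxes are shown because they place a *Myc* and *Max* motif in the promoters of genes that compete with Myc for Max. The motif is in capitals, and both sequences are on the strand of their gene. The *Mnt* stretch is chr11:74830761-74830846 (plus strand), with the E-box starting 123 bases before the start, and the *Mxd4* stretch is chr5:34187884-34187960 (minus strand), with the E-box starting 219 bases before the start.
Mnt: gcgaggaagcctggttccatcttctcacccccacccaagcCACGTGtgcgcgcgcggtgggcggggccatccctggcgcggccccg
Mxd4: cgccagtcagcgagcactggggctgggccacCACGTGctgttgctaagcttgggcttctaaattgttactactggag

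Peaks of 7 lists covered the whole *Mnt* stretch, among them all 4 H3K9ac lists and both replicate 2 lists of H3K27ac. No peak of any list covered the whole *Mxd4* stretch, although peaks lay on both sides of it. Lists with a peak over part of a stretch were not counted. The Cebp letters were also found at *Mxd4* and in 9.56% of all promoters. Spi1 and Runx letters were found at 0 members and in 2.44% and 4.40% of all promoters. A match is a description of the sequence and not a bound site.

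*Mxi1* (plus strand, chr19:53310518-53375810), a Max-binding repressor, was the member with the lowest KO to WT difference in H3K9ac. The fold enrichment of its strongest peak reached 20 and 23.2 in WT but 15.7 and 15.8 in KO. Both KO libraries were below both WT libraries, as at 19.2% of the genes fitted. At *Mxi1* the gap exceeded the distance between the replicates of either genotype. The peak was 3943 to 4079 bp wide in the 4 libraries and spanned the first pair of *Mxi1* promoters, 2548 bp apart. Its summit, where the fold enrichment is read, was not at the same place in every library. It lay at -1255 bp from the nearest TSS in WT replicate 2, outside the promoter. In WT replicate 1 it lay at 493 bp, and in KO at 512 and 251 bp. At the next promoter, 18895 bp after the outermost TSS, H3K9ac was 11.3 and 12.7 in WT and 11.4 and 11.0 in KO, and the groups overlapped. H3K4me3 did not follow H3K9ac, with strongest peaks of 12.8 and 7.49 in WT and 9.12 and 12.9 in KO. These H3K4me3 values come from the promoter at 18895 bp in all but WT replicate 2, where the promoter at 2548 bp was the strongest.

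*Mxi1* also held acetylated stretches inside the gene that touch no promoter. From about 7 to 9 kb after the outermost TSS, H3K9ac reached 8.18 and 21.5 in WT and 5.24 and 17.7 in KO. Here the replicates differed more than the genotypes, and replicate 2 was the higher in both. The H3K27ac peak over the same stretch, at 12.4 in WT and 13.2 in KO, was stronger than any H3K27ac peak at a *Mxi1* promoter, where replicate 2 gave at most 5.98 in WT and 11.4 in KO. In replicate 1, WT had 1 H3K27ac peak at a *Mxi1* promoter (3.46) and KO none. A further stretch near 15 kb had H3K9ac of 6.79 and 8.67 in WT and 7.24 and 11.5 in KO. H3K27ac there was 3.09 and 9.02 (WT and KO, replicate 2). Outside promoters, H3K4me1 peaks in replicate 2 covered 1396 bp of *Mxi1* in WT and 8740 bp in KO, and over the whole genome the KO list covered 3.66 times the length of the WT list. In replicate 1 these were 0 bp in WT and 215 bp in KO.

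Among the other repressors, *Mxd1* and *Mxd4* are linked to maturing cells and *Mxd3* to cells that replicate their DNA. *Mxd1* (minus strand, chr6:86647042-86669161) had H3K9ac values of 10.7 and 5.94 in WT and of 10.7 and 9.43 in KO. WT replicate 2 was the low library, and the KO values lay within the WT range or at its top. The H3K9ac summits lay 431 to 446 bp downstream of the nearest TSS, whereas the strongest H3K27ac peaks, 6.16 in WT and 8.22 in KO, had their summits on the other side of it. Those summits were at -595 bp in both genotypes. H3K4me3 at *Mxd1* was 6.78 and 8.26 in WT and 6.23 and 7.16 in KO, and the groups overlapped.

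*Mxd3* (minus strand, chr13:55325168-55329823) had the weakest H3K9ac of the Max-binding repressors in the WT replicate 1 and both KO lists. Its H3K9ac was 7.44 and 6.96 in WT and 6.21 and 6.91 in KO. Both KO values lay below both WT values, as at 19.2% of the genes fitted. The gap between the nearest WT and KO libraries was far smaller than the distance between the KO replicates. H3K4me3 was 8.62 and 6.59 in WT and 6.86 and 9.06 in KO, and the groups overlapped. The strongest H3K27ac peak was 6.16 in WT and 5.80 in KO, and *Mxd3* was the 1 of 8 members with H3K27ac where it was lower in KO replicate 2. The median over all genes with an H3K27ac peak was also higher in that library, at 8.29 against 6.39 in WT replicate 2.

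*Mxd4* (minus strand, chr5:34173883-34187720) had H3K9ac values of 13.8 and 9.65 in WT and of 9.50 and 11.9 in KO. Its H3K4me3 values were 8.37 and 5.20 in WT, set against 9.12 and 6.46 in KO. The genotypes overlapped for both marks. H3K27ac at *Mxd4* was 4.21 in WT and 7.07 in KO, both in replicate 2. These values come from separate peaks, with summits at 337 bp (WT) and -497 bp (KO) from the nearest TSS.

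*Mga* (plus strand, chr2:119897228-119969581), the largest gene of the network, combined weak H3K4me3 with moderate acetylation. H3K4me3 was 3.52 and 4.05 in WT, not listed in KO replicate 1, and 4.53 in KO replicate 2. H3K9ac was 8.65 and 8.17 in WT and 6.35 and 10.5 in KO, so the lowest and the highest value were both from KO. H3K27ac was 5.54 in WT and 12.2 in KO, at percentiles 37.5 and 78.1. The peaks lay at the outermost of 6 promoters, and H3K9ac covered 10.1% to 11.3% of the promoter sequence of the gene.

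**Figure D2:**
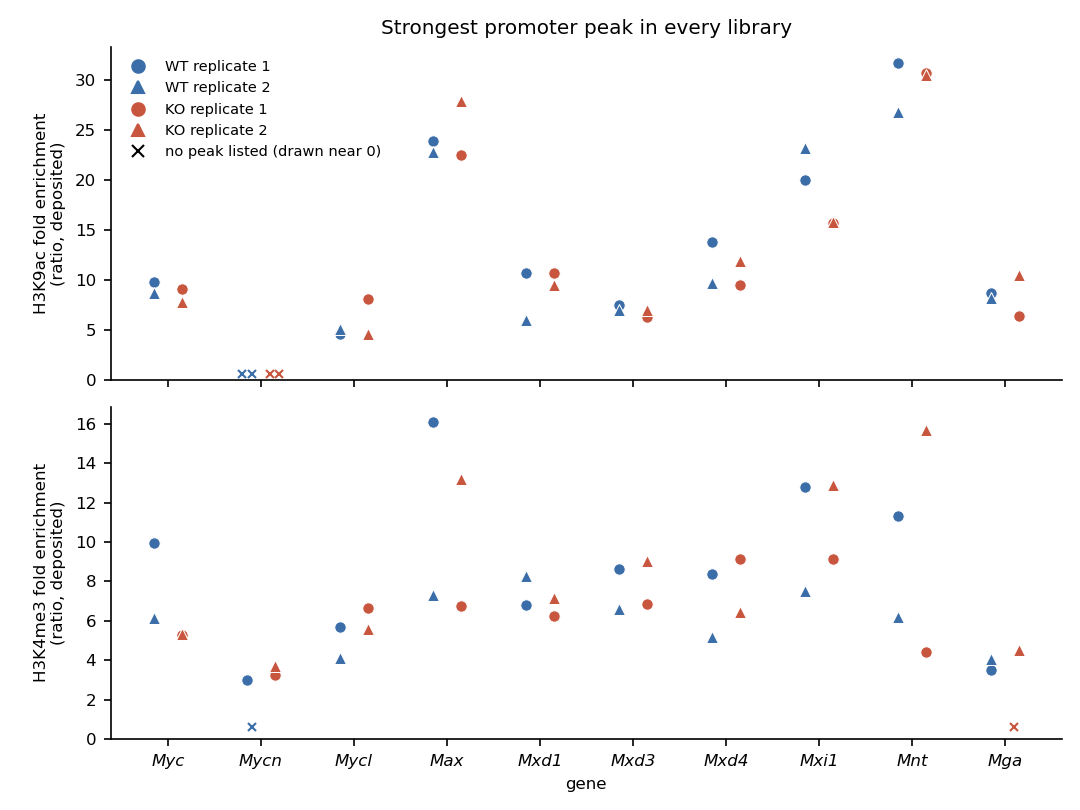
Deposited fold enrichment (a ratio) of the strongest promoter peak of each gene for H3K9ac (top) and H3K4me3 (bottom), 1 point per library, blue for WT and red for KO, circles for replicate 1 and triangles for replicate 2, crosses for no listed peak. Mnt leads in H3K9ac in all 4 libraries, and the genotypes stand apart at Mxi1 and barely at Mxd3 for H3K9ac and at Myc for H3K4me3.

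Ordered by H3K9ac, *Mnt* came first in all 4 libraries, followed by *Max* and *Mxi1*. *Mxi1* exceeded *Max* in WT replicate 2 alone, by 23.2 to 22.8. *Mxd4*, *Mxd1*, *Myc* and *Mga* held the middle with values from 5.94 to 13.8, and neighbours in that order overlapped. *Mxd3* and *Mycl* were lower in most libraries but overlapped each other and the middle group, and *Mycn* had no peak. Across all protein-coding genes with a peak the median H3K9ac fold enrichment was 10.7 and 11.1 in WT and 9.61 and 11.6 in KO. For H3K4me3 no gene kept first place in all 4 libraries, and *Max* ranged from 6.74 to 16.1 and *Mnt* from 4.41 to 15.7.

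To compare the genotypes, limma was fitted to the quantile-normalized log2 fold enrichment of all genes with a promoter peak in the 4 libraries of a mark. For H3K9ac, 9 of the 10 members were among the 10837 genes fitted, and for H3K4me3, 8 of 10 were among the 10247 fitted. *Mycn* failed the filter for both marks and *Mga* for H3K4me3. No gene passed an adjusted p of 0.05 in limma, so that 0 members were called and the background was 0% higher and 0% lower in KO for both marks. At an unadjusted p under 0.05, 419 genes stood for H3K9ac and 564 for H3K4me3, with smallest adjusted p-values of 0.999 and 0.856.

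The largest H3K9ac differences among the members were at *Mycl*, *Mxd1* and *Mxi1*, and all of their confidence intervals include 0. The KO minus WT difference on the log2 scale was 0.46 at *Mycl* (SE 0.38, 95% confidence interval -0.31 to 1.24). At *Mxd1* it was 0.43 (SE 0.38, -0.34 to 1.20). Both turned slightly negative when 1 library was left out, *Mycl* at -0.07 without KO replicate 1 and *Mxd1* at -0.01 without WT replicate 2. At *Mxi1* it was -0.41 (SE 0.37, -1.15 to 0.33) and stayed negative in all 11 alternatives, between -0.53 and -0.29. The limma adjusted p was 0.999 for these 3 genes. The remaining 6 members had H3K9ac differences between -0.03 and 0.16, the latter at *Max*. *Myc* H3K9ac differed by -0.03 (SE 0.37, -0.78 to 0.72), an interval that leaves room for a change of either sign.

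For H3K4me3, the members spread from -0.48 at *Myc* (SE 0.36, 95% confidence interval -1.21 to 0.25, limma adjusted p 0.917) to 0.43 at *Mycl* (SE 0.36, -0.31 to 1.16, limma adjusted p 0.934). The *Mycl* difference ranged from 0.16 to 0.68 when 1 library was left out. The *Myc* difference stayed negative in all 11 alternatives, from -0.62 to -0.34. The SD of log2 fold enrichment between replicates across genes was 0.39 in WT and 0.37 in KO for H3K9ac, and 0.38 in both for H3K4me3, close to these differences. Before scaling, 0 members were higher in both KO libraries than in both WT libraries, for either mark, where 10.4% of genes were so for H3K9ac and 8.92% for H3K4me3. Lower in both were 2 of 9 members for H3K9ac, *Mxd3* and *Mxi1*, against 19.2% of genes, and 1 of 8 for H3K4me3, *Myc*, against 14.0%. These shares are near the background.

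**Figure D3:**
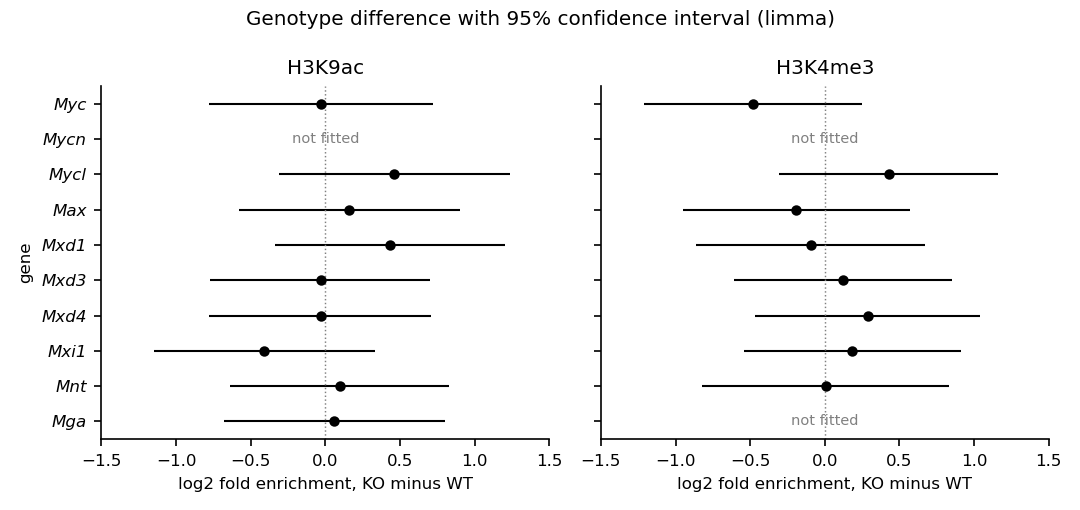
KO minus WT difference in log2 fold enrichment of the strongest promoter peak for each gene, with the 95% confidence interval from limma (2 libraries per genotype), for H3K9ac (left) and H3K4me3 (right). Every interval crosses 0, and the points farthest from 0 are Mycl, Mxd1 and Mxi1 for H3K9ac and Myc and Mycl for H3K4me3.

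The wider network was looked at through 19 genes of the *Mlx* arm and of *Myc* regulators, among them *Mlx* and *Mlxip* (partners of sugar-sensing dimers), *Sin3a* and *Sin3b* (corepressors used by the Mxd proteins), *Trrap* and *Ep400* (coactivators of *Myc*) and *Fbxw7* and *Huwe1* (ligases that act on *Myc*). In WT, 19 of 19 had H3K9ac in both libraries, and in KO 18 of 19 did, against 51.7% and 50.1% of all protein-coding genes. The exception was *Mlxipl*, with 4.63 and 4.35 in WT, no peak in KO replicate 1 and 3.62 in KO replicate 2. Of 18 genes fitted for H3K9ac, 13 had lower and 5 higher values in KO, with a median log2 difference of -0.19 against 0.00 over all genes fitted, of which 49.9% were higher in KO. That median stayed negative in all 11 alternatives, from -0.28 to -0.07, and 0 of the 18 were called by limma. For H3K4me3 the median was -0.04, with 8 higher and 10 lower in KO, 0 called, and a range of -0.11 to -0.01 over the alternatives. The list took its final form after the first fits were seen, so its counts and medians are a description only.

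As examples, H3K9ac at *Sin3a* was 22.0 and 23.4 in WT but 15.8 and 15.2 in KO, and at *Fbxw7* it was 26.1 and 21.6 in WT but 16.1 and 19.3 in KO. Both were lower in each KO library than in each WT library. *Aurka*, a kinase that stabilizes Myc proteins, was the other way, with 8.01 and 8.65 in WT but 10.7 and 11.9 in KO. In the list, 7 of 18 genes were lower in both KO libraries for H3K9ac and 1 was higher, against 19.2% and 10.4% of all genes fitted. These genes and *Mlxipl* were singled out after their values were seen.

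Among 25 classical *Myc* target genes of ribosome production, metabolism and the cell cycle, such as *Ncl*, *Npm1*, *Odc1* and *Cdk4*, 25 had H3K9ac in both WT libraries and 24 in both KO libraries. Of all protein-coding genes, 51.7% in WT and 50.1% in KO had it. *Tert*, the exception, had 3.33 and 4.00 in WT, 3.11 in KO replicate 1 and no peak in KO replicate 2. The list showed no common direction. Of 24 fitted for H3K9ac, 11 were higher and 13 lower in KO with a median log2 difference of -0.04, which ranged from -0.11 to 0.12 over the alternatives. For H3K4me3, 12 of 23 were higher and 11 lower, with a median of 0.01 (-0.07 to 0.06). limma called 0 of them for either mark. H3K27ac in replicate 2 was listed at 20 of 25 in WT and 24 of 25 in KO, against 44.3% and 49.8% of all protein-coding genes. *Cad*, *Ccnd2*, *Shmt2* and *Polr1b* had it in KO alone. The KO list is the longer one, and its part in this count was not tested. These genes and *Tert* were singled out after their values were seen.

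Downstream of *Myc*, the 2 Mb from chr15:61990375 to chr15:63990374 hold few genes and, in these leukemias, a group of marked regions at the far end. Of 30 annotated genes with a TSS there, 5 are protein-coding, namely *Gsdmc*, *Gsdmc2*, *Gsdmc3*, *Gsdmc4* and *Fam49b*. Only 5 of the 30 had a promoter peak in any of the 16 lists. The *Gsdmc* genes had none, and *Fam49b*, *Gm27718* and *H2afy3* each had 1, of H3K4me1 in KO replicate 2. The last 2 of the 5 were *Pvt1*, a long noncoding RNA gene next to *Myc*, and *Gm27913*, which lies within it. The remaining noncoding RNAs and pseudogenes, such as *Gm30159*, *Gm41333* and *Gm41335*, had none.

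*Pvt1* starts 52.6 kb after the *Myc* TSS. Its H3K9ac fold enrichment was 3.19 and 2.79 in WT and 5.75 and 4.29 in KO. Both KO libraries lay above both WT libraries, as at 10.4% of the protein-coding genes fitted, and no test was made because *Pvt1* is not protein-coding and was not fitted. H3K4me3 at *Pvt1* was 5.92 in WT replicate 1, not listed in WT replicate 2, and 6.97 and 5.80 in KO. H3K27ac was listed in KO replicate 2 alone, at 4.64.

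Among the usable lists, H3K4me1 was the 1 mark that covered more of the 2 Mb than the genome average. In replicate 2, 42 peaks in WT covered 10852 bp, 1.28 times the average for a stretch of this length, and 78 peaks in KO covered 42241 bp, 1.37 times. H3K27ac covered 1524 bp in WT with 4 peaks and 8753 bp in KO with 20 peaks, 0.105 and 0.333 times the average. The ratios for H3K9ac were below 1 in all 4 libraries. The narrow H3K27ac and H3K4me1 peaks of replicate 1 covered 1796 and 423 bp in WT and 129 and 1443 bp in KO.

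The peaks were not spread evenly. Of the H3K4me1 length in replicate 2, 79.0% in WT and 81.7% in KO lay in the last 500 kb, from 1500 to 2000 kb after the end of *Myc*, and none lay between 1000 and 1500 kb in either genotype. For H3K27ac these shares of the last 500 kb were 100% in WT and 75.9% in KO. The densest 100 kb, from 1600 to 1700 kb, held 16 H3K4me1 peaks over 4828 bp in WT and 26 over 15790 bp in KO. In WT replicate 1, all 6 H3K4me1 peaks of the 2 Mb lay in the last 500 kb, while the 23 of KO replicate 1 were spread over all of it. For H3K27ac in replicate 1, 6 of 33 peaks in WT and 1 of 2 in KO lay in the last 500 kb. None of these replicate 1 peaks had a q-value of at most 0.05. By H3K27ac, the strongest region of the cluster lies inside the noncoding gene *Gm41335*, at 7.28 in KO replicate 2. The strongest H3K4me1 peak of replicate 2 lies inside *Gm41335* in WT (5.19) and inside *Fam49b* in KO (5.41). *Fam49b* takes up the end of the window.

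**Figure D4:**
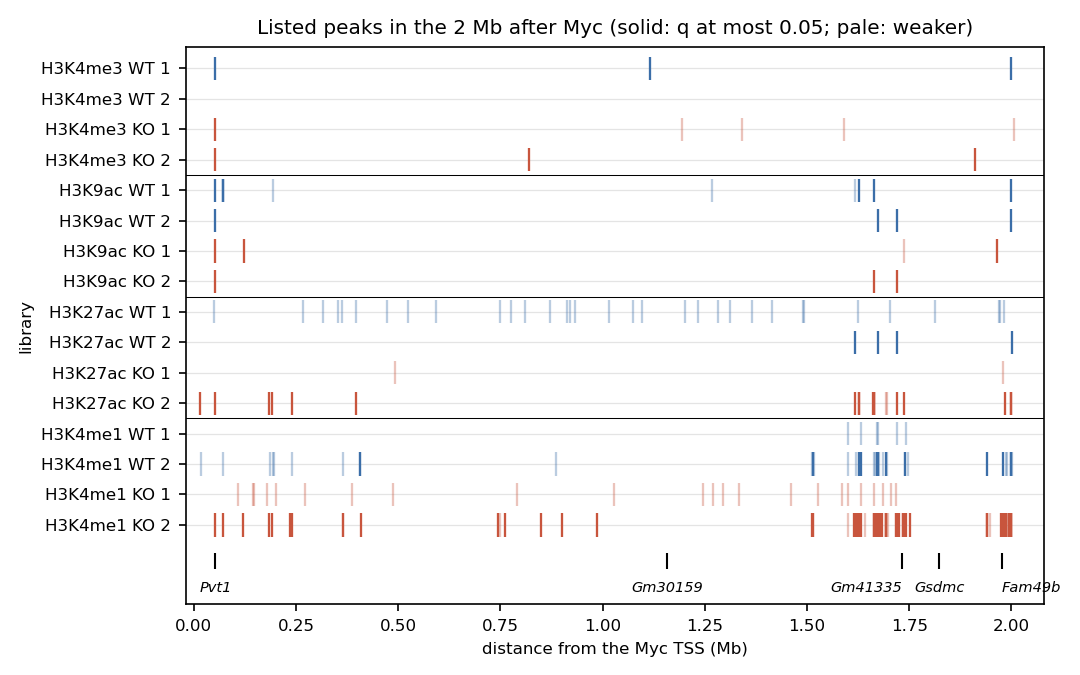
Start of every listed peak in the 2 Mb after Myc, by distance from the Myc TSS (Mb), 1 row per library, with ticks for the TSS of selected genes at the bottom. Solid lines have a q-value of at most 0.05 and pale lines do not. The H3K4me1 peaks of replicate 2 are densest in the last 0.5 Mb in both genotypes.

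The H3K27ac length in the window in KO was 5.74 times that in WT, in 1 library per genotype and without a test. The same ratio over the whole genome was 1.82, and the KO list is the longer one. With the KO list cut to the number of peaks in the WT list, an alternative chosen after seeing the data, the window ratio was 3.57, and in replicate 1 it was 0.0718. A difference in depth or enrichment between these libraries cannot be told apart from a difference between the genotypes. H3K9ac, with usable replicates, did not share this direction. It covered 2664 and 1747 bp in WT and 1339 and 1717 bp in KO, means of 2206 and 1528 bp. Both KO libraries lay below both WT libraries, and the difference of means was -678 bp, with a two-sided exact permutation p of 0.33, the smallest that 2 against 2 libraries can give. Over the whole genome the H3K9ac lists also covered less in KO (20.7 and 24.7 Mb) than in WT (26.8 and 28.9 Mb). Relative to the genome average, the window values of 0.136 and 0.0824 in WT and 0.0880 and 0.0949 in KO overlapped. When every library was cut to the same number of peaks, the difference was 36.5 bp in the other direction.

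**Figure D5:**
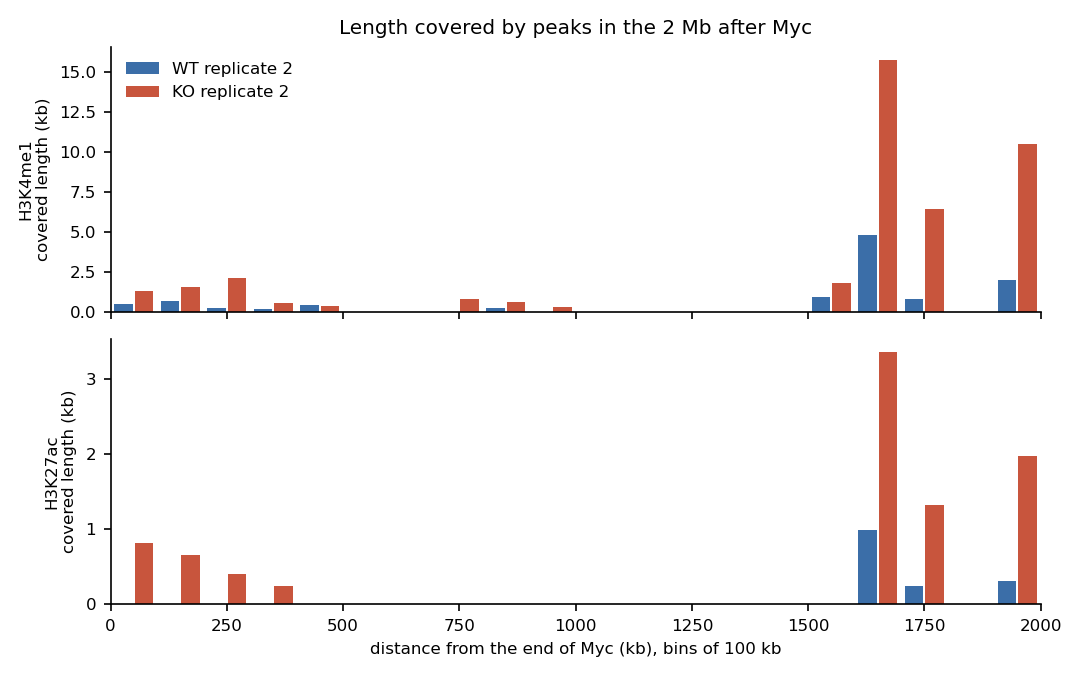
Length covered by H3K4me1 (top) and H3K27ac (bottom) peaks of replicate 2 in each 100 kb after the end of Myc (kb), blue for WT and red for KO, 1 library each. Both marks concentrate beyond 1500 kb, and KO covers more than WT in each of these stretches that holds a peak.

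Distal H3K27ac regions, which overlap no annotated promoter, numbered 4 in WT and 19 in KO. Regions shared by both genotypes were 2 of the 4 in WT (50%) and 2 of the 19 in KO (10.5%), against 80.7% and 36.3% of distal H3K27ac regions over the genome. For H3K4me1, 24 of 41 WT regions (58.5%) and 23 of 73 KO regions (31.5%) were shared, against 54.2% and 28.9% over the genome.

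The 5 distal regions with the largest H3K27ac fold enrichment all lay in introns beyond 1600 kb. The first, chr15:63703896-63704953, starts 1719 kb after the *Myc* TSS in an intron of *Gm41335*. Its H3K27ac was 3.69 in WT and 7.28 in KO, and H3K9ac was listed in replicate 2 of both genotypes, at 6.30 in WT and 3.42 in KO. The acetylation marks thus pointed in opposite directions between the genotypes there, and neither mark was listed there in replicate 1. The next, chr15:63985854-63987060, starts 2000 kb after the TSS in an intron of *Fam49b*, with H3K27ac at 3.57 in WT and 5.77 in KO and H3K4me1 at 3.11 and 5.41. These are the 2 regions shared by both genotypes.

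The other 3 regions had H3K27ac in a single genotype, and all lie in introns of *Gm41335*. The region chr15:63647546-63647918, which starts 1662 kb after the *Myc* TSS, had 4.64 in KO and no overlapping peak of another mark. A separate KO H3K27ac region starts at 1663 kb, with H3K9ac in WT replicate 1 and KO replicate 2 and H3K4me1 in KO replicate 2. The region chr15:63612418-63613163 had 4.33 in KO, with H3K4me1 in replicate 2 of both genotypes. The region chr15:63603308-63603860 had 4.01 in WT, with H3K9ac at 2.12 in WT replicate 1 and H3K4me1 at 3.93 in KO replicate 2. It starts 1618 kb after the *Myc* TSS, and a separate KO H3K27ac region starts at 1617 kb, at 3.90.

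The 300 bases around the KO summits of the shared regions are shown because these are the distal H3K27ac regions that both genotypes have in the 2 Mb after *Myc*. They are on the plus strand of GRCm38 from RefSeq, at chr15:63704263-63704562 for the region in *Gm41335* and chr15:63986201-63986500 for the region in *Fam49b*. The WT peak of the *Gm41335* region, chr15:63704621-63704854, lies outside the printed bases, so among the H3K27ac peaks that sequence is under the KO peak alone. The H3K9ac peaks of replicate 2 cover it in both genotypes. Capitals mark the letters TGTGGTT (Runx) in the first, which occur in the same length around 7.41% of distal H3K27ac summits in WT and 7.37% in KO. In the other they mark a match to TTGCNNAA (Cebp) on the opposite strand, found at 11.0% in WT and 11.4% in KO.
Gm41335 region: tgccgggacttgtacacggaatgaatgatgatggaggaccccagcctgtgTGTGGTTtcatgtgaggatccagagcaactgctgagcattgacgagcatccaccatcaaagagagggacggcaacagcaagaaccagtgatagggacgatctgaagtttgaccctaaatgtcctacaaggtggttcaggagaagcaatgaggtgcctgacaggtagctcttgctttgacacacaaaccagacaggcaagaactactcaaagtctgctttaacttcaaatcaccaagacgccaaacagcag
Fam49b region: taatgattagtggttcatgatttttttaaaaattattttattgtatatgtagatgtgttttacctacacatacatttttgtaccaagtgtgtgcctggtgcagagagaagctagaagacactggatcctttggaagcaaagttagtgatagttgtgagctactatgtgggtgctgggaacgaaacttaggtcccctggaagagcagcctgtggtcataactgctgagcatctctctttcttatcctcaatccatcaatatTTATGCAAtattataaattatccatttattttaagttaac

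None of the 4 motifs was found in the other 3 regions, and neither CACGTG nor GAGGAAGT in any of the 5. Over the genome these letters were present around 4.63% and 3.07% of distal H3K27ac summits in WT and 4.40% and 3.15% in KO. A match here, too, describes the sequence alone.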

How the data were processed

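The deposited files are peak lists, 1 for each of 16 ChIP libraries, that the authors made by aligning reads to mm10 with BWA and calling peaks with MACS2. Per the file headers and values, the deposited columns hold fold enrichment over local background (a ratio), -log10 p, -log10 q and a score. Versions of BWA and MACS2 are not stated, the lists are cut near a p of 0.01, replicates were not pooled, and the 16 input libraries were not analysed. The lists give no read counts, so depth and its precision are unknown.

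Peaks were assigned to promoters with GENCODE M21 (Python 3.11.15, numpy 2.4.6, pandas 2.3.3, scipy 1.17.1, bedtools 2.31.1, samtools 1.23.1, pysam 0.24.0, matplotlib 3.10.9). The strongest promoter peak stood for a gene, so libraries could differ in which peak gave the value. A gene had a mark where both replicates listed a peak (H3K4me3, H3K9ac) or replicate 2 did (H3K27ac, H3K4me1). For H3K9ac and H3K4me3, log2 fold enrichment of genes with a peak in all 4 libraries was quantile-normalized and compared, KO minus WT, with limma 3.58.1 (R 4.3.3) and Benjamini-Hochberg adjustment over all genes fitted. Quantile normalization assumes that most promoters do not differ. Covered H3K9ac length downstream of Myc was compared with an exact permutation test. H3K27ac and H3K4me1 were not tested, having 1 usable library per genotype.

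Genes named were the 10 members, genes with a TSS in the 2 Mb after Myc, the 5 distal regions with the largest H3K27ac fold enrichment, and list genes with H3K9ac in both replicates of 1 genotype and none of the other, or called by limma. Other list genes are named as examples of what a list holds, to complete the erythroid list, or where the text says that they were singled out after their values were seen. The members and lists were chosen with earlier results of these data known. From the list of the Mlx arm and Myc regulators, 1 gene was taken out after the first fits and is not reported here, so the counts and medians of that list leave it out. Alternatives varied the scaling, measure, q-value filter, promoter definition, block, libraries, list length and window. The code was tested on simulated data, and the simulation for limma was revised once after a fault in how it drew variances.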

Additional observations from a re-analysis of the deposited data

How the results depend on the processing

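The number of genes called by limma stayed 0 for H3K9ac and H3K4me3 under all 11 alternatives, and the number of members with H3K9ac or H3K4me3 did not move by more than 1. Requiring both replicates gave 3 members with H3K27ac in WT and 0 in KO, against 2468 and 75 of all 21938 protein-coding genes. For H3K4me1 it gave 0 members in either genotype, against 243 genes in WT and 355 in KO. H3K4me1 in WT was at 1 member with q of at most 0.05, at 2 with the outermost TSS alone and at 9 within 2.5 kb. In KO it was at 5 with the q filter, 4 with the outermost TSS and 8 within 2.5 kb. No share of all genes is available under these settings, so these counts, too, stand without a background. Of 185 member differences under alternatives, 164 kept their sign and 21 reversed. Using -log10 p, these were *Mxd4* (0.07) and *Mnt* (-0.02) for H3K9ac and *Mxd1* (0.07) and *Mnt* (-0.01) for H3K4me3, and without scaling *Mga* H3K9ac (-0.04) and *Mnt* H3K4me3 (-0.01). Leaving out 1 library gave, for H3K9ac, -0.29 to 0.23 at *Myc* (0.07 without WT replicate 1), -0.07 to 0.98 at *Mycl*, -0.01 to 0.87 at *Mxd1*, -0.12 to 0.05 at *Mxd3* (0.03 without WT replicate 1), -0.31 to 0.24 at *Mxd4*, -0.01 to 0.20 at *Mnt* and -0.16 to 0.27 at *Mga*. For H3K4me3 it gave -0.50 to 0.13 at *Max* (0.11 without WT replicate 1), -0.57 to 0.38 at *Mxd1*, -0.10 to 0.67 at *Mxd4* and -0.72 to 0.74 at *Mnt* (-0.12 without WT replicate 2). In these fits the lone sample of a genotype is assumed to vary like the others.

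Downstream of *Myc*, the H3K9ac difference of -678 bp ranged from -1136 to -219 bp when 1 library was left out, was -436 bp with q of at most 0.05 and -118 bp in 1 Mb, and became 36.5 bp with equal numbers of peaks. The H3K27ac ratio was 5.37 with q of at most 0.05, 0.0718 in replicate 1 alone and 3.57 with equal numbers of peaks in the replicate 2 lists, added after the data were seen. It could not be computed with equal numbers over all 4 lists or in 1 Mb, where WT had no covered length, and both settings gave 0 shared distal regions. The cause of these shifts was not tested.

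The replicates share only a number between genotypes, and their deviations correlated with r 0.13 for H3K9ac and 0.00 for H3K4me3 across genes. With the replicate block, limma called 0 genes for either mark, with 558 and 602 genes at an unadjusted p under 0.05. The paired H3K9ac length downstream of *Myc* differed by -1325 and -30 bp (mean -678 bp). The exact permutation p was 0.50, the smallest that this paired test can give.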
